A study of Drosophila melanogaster with 2 samples.

Results

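The genes described here are the 73 protein-coding genes of *Drosophila melanogaster* whose symbol begins with mRpL or mRpS in the Ensembl BDGP6 annotation. By symbol alone, the 47 mRpL genes are counted here as large and the 26 mRpS genes as small subunit genes of the mitochondrial ribosome. The place of each protein in the ribosome was not checked. The annotation holds 13945 protein-coding genes in all. Chromatin immunoprecipitation with sequencing (ChIP-seq) had been carried out with an antibody against green fluorescent protein (GFP) on whole embryos of pooled sexes, aged 0 to 24 h. The fly line carries the transcription factor Repo with GFP at its C-terminus. All data come from 1 group of 2 biological replicates, labelled 1 and 3, which both carry the tagged protein, and no untagged or otherwise treated group was analysed here. Glia are a minority of the cells of a whole embryo, so a peak cannot be placed in a cell type, and no RNA data were analysed here.

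Mitochondria translate the proteins of their own small genome on a ribosome that is distinct from that of the cytoplasm. Its RNAs are copied from mitochondrial DNA, whereas its proteins are encoded by nuclear genes, made in the cytoplasm and imported. Many of these proteins have relatives in the bacterial ribosome, and others are found in mitochondria but not in bacteria. Repo is a homeodomain transcription factor of glia, the support cells of the nervous system, and is needed for their differentiation.

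The values are those of the authors' peak lists on the genome build dm6. The pooled list, made from both replicates, held 30000 peaks including background, and the optimal list held the 2697 peaks kept after thresholding on the irreproducible discovery rate (IDR), which were also the 2697 pooled peaks of highest signal. The signal value of an optimal peak, whose scale is not stated, was between 84.0 and 1703.5, and the median was 123. The remaining 27302 pooled peaks whose summit lay in no optimal peak are called weak peaks here, with a median signal of 34.7. Rank 1 is the highest signal in a list. The number of sequencing reads behind the lists is unknown here.

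Of the 73 genes, 21 (28.8%) had the summit of an optimal peak between 2 kb upstream of the gene and its end, against 19.7% of all protein-coding genes. These 21 genes are called bound below. Within 500 bp of the gene's own transcription start site (TSS) there was an optimal summit at 18 members (24.7%), against 13.6% of all protein-coding genes. However, the member's own TSS was the nearest protein-coding TSS to an optimal summit in 6 cases (8.22%), counted at any distance and with ties, against 15.0% of all genes. Without replicate 3, on the 2697 highest peaks of replicate 1, the own TSS was nearest for 10 members (13.7%), close to the 15.0% of all genes in that list. Members were thus above the background by position near a start in the optimal list. By nearest start they were below it there and without replicate 1 (9.59% against 15.0%), and near it without replicate 3. The share bound depended on the list too. Without replicate 1 it was 21.9% against 19.5% of all genes, and without replicate 3 it was 28.8% against 20.1%. With only the upper optimal peaks, described further on, it was 12.3% against 11.3%. By nearest start, members were at 4.11% with those peaks, against 8.29% of all genes. No test over gene lists was run, and these shares are descriptions. Counting every peak of the pooled list, 70 members (95.9%) had a summit, against 73.4% of all genes.

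Each of the 21 bound genes had exactly 1 optimal peak, and the 21 summits were distinct. In 20 of them the summit lay upstream of the member's TSS, and mRpL23 was the exception. Over all 21, the median distance from the member's TSS was 168 bp. The nearest TSS belonged to the member in 5 cases, to another gene in 15, and in the remaining case, mRpL53, to both genes at an equal distance, since CG33155 is annotated with the same start. Of the 18 members bound within 500 bp, the own TSS was nearest, ties included, in 33.3%, whereas this was so for 76.3% of all genes bound within 500 bp. By place in the annotation, 14 summits lay between genes, 4 in untranslated exons, 3 in introns and 0 in coding exons. The shares over all optimal peaks are not given here, so these places are not read as particular to the members.

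Members also differed from all genes in how they are arranged. A gene is called head-to-head here when a protein-coding TSS on the opposite strand lies at most 1000 bp upstream of its own start, or overlaps it by at most 100 bp. Of the 73 members, 58 (79.5%) were head-to-head, against 36.3% of all protein-coding genes. All 21 bound members had such a partner, whereas 1536 of the 2751 bound among all genes had one. By the interval, 21 of the 58 head-to-head members were bound, against 1536 (30.3%) of all 5068 head-to-head genes. In 14 of the 21 bound members the summit lay between both starts. The same count over all head-to-head genes is not given here, so this is not read as particular to the members. Among head-to-head genes, 31.0% of the members and 23.5% of all such genes had an optimal summit within 500 bp of their own TSS. The 15 members with no partner had 0 such summits, against 7.95% of the 8877 genes of that kind; they were mRpL9, mRpL10, mRpL12, mRpL13, mRpL14, mRpL19, mRpL36, mRpL40, mRpL45, mRpL49, mRpS5, mRpS9, mRpS33, mRpS34 and mRpS35. Distances between partner starts ran from 20 to 793 bp among members, with a median of 257 bp in the bound, 291 bp in the unbound and 296 bp in all head-to-head genes. A partner was thus more frequent among members than among all genes, while the distance to it was similar. Of head-to-head genes bound within 500 bp, the own TSS was nearest, ties included, in 33.3% of the members and 62.7% of all. Counted at any distance, it was nearest to an optimal summit in 17.5% of all head-to-head genes, against 15.0% of all protein-coding genes. The closest TSS of any other gene was at a median of 384 bp from a member and 1416.0 bp from a gene across all protein-coding genes.

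**Figure D1:**
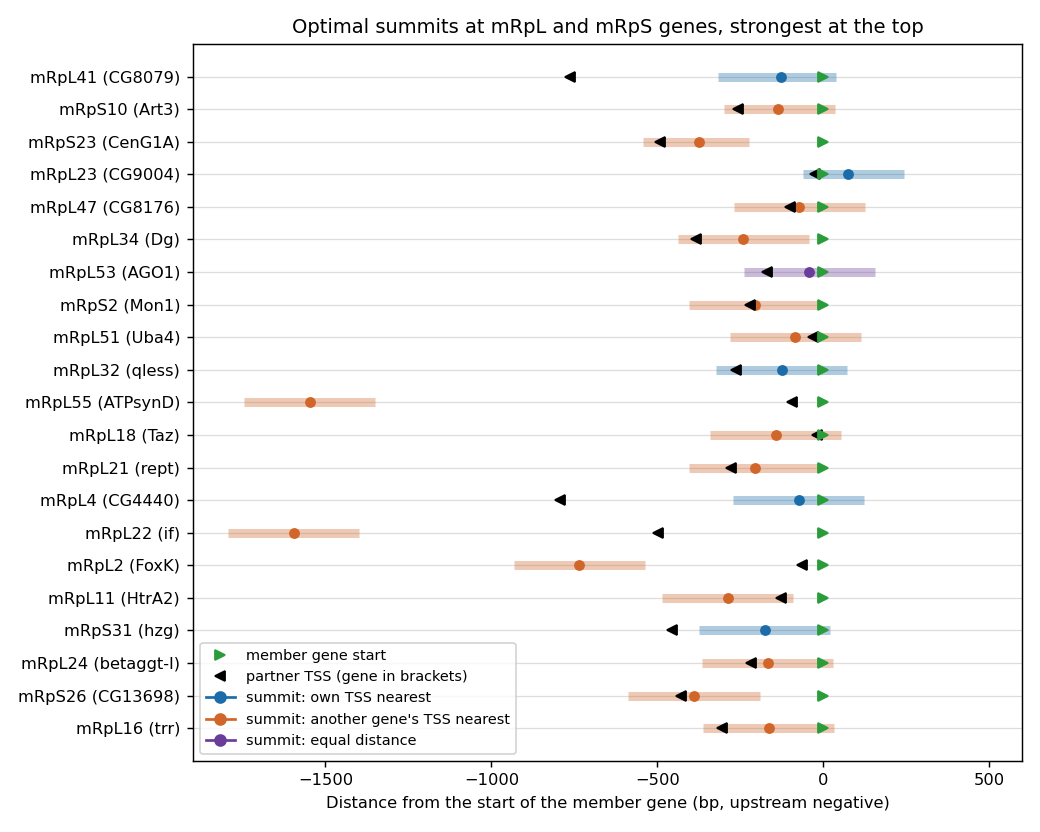
Position of each bound member's optimal peak (bar) and its summit (dot), in bp from the start of the member gene, with upstream negative, members ordered by signal. Right-pointing triangles mark the member's start, left-pointing triangles the closest start of the head-to-head partner named in brackets; a partner may have further starts. In 14 of the 21 rows the dot lies between both triangles, and 3 summits lie more than 500 bp from the member's TSS.

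Among large subunit genes, 16 of 47 (34.0%) were bound, with a median signal of 108, and 13 (27.7%) were bound within 500 bp of their TSS. Among small subunit genes the counts were 5 of 26 (19.2%) for both measures, with a median signal of 129. Members with bacterial relatives were bound in 14 of 45 cases (31.1%) and members known from mitochondria alone in 7 of 28 (25.0%). By the interval, small subunit genes were thus at the 19.7% background and the other groups above it by a few genes. Within 500 bp of the TSS the small subunit genes too were above the background, which was 13.6%. Their count by the interval was 3 without replicate 1 and 7 without replicate 3. The differences were not tested. On the chromosome arms, 5 of 12 members were bound on 2L, 4 of 12 on 2R, 5 of 17 on 3L, 5 of 21 on 3R and 2 of 11 on X. The shares over all genes of each arm are not given here, so no difference between arms is read from these counts.

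The strongest peak at any member was that of mRpL41, a large subunit protein known from mitochondria and absent from bacteria (FBgn0034001, chr2R:15217024-15217617, minus strand). The peak at chr2R:15217578-15217933 had a signal of 1024.5, rank 10 in the pooled list, and ranked 10 in both replicates, with signals of 472 in replicate 1 and 556 in replicate 3. Its summit lay between genes, 126 bp upstream of mRpL41 and 636 bp from CG8079, so that it was among the 5 summits for which the member's own TSS was nearest. mRpL34, a relative of bacterial L34 on 2R, had a signal of 174 (rank 704), ranks of 772 and 736 and replicate signals of 79.9 and 91.9. That summit was 241 bp upstream of mRpL34 and 143 bp from Dg, the gene of dystroglycan, a receptor for the extracellular matrix. mRpL53, known from mitochondria alone and also on 2R, had a signal of 150 (rank 933), with 71.5 in replicate 1 and 76.7 in replicate 3. The summit lay 42 bp upstream of mRpL53, inside an intron of AGO1, an Argonaute gene of microRNA silencing whose closest start is 170 bp from that of mRpL53. mRpL18, related to bacterial L18, had a peak of 106 (rank 1779) in an untranslated exon of Taz, the tafazzin gene of cardiolipin remodelling, 143 bp from the own and 123 bp from the other start. It was uneven between replicates, at rank 2835 with a signal of 43.1 in replicate 1 and at rank 1305 with 67.0 in replicate 3.

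The next bound large subunit genes described are mRpL23, mRpL47, mRpL4, mRpL22 and mRpL24, which have bacterial relatives. mRpL23, related to L23 at the tunnel exit (chr3L:2372844-2373704, minus strand), had the second highest large subunit peak, with a signal of 545 at rank 52. It ranked 55 in replicate 1 with a signal of 241 and 53 in replicate 3 with 301, so the replicates gave it nearly the same place. The summit was in an untranslated exon of the gene itself, 48 bp downstream of 1 of its 3 annotated starts and 98 bp from the start of CG9004. mRpL47, a relative of bacterial L29, which also sits near the tunnel exit, had a signal of 193 (rank 555), with 96.0 in replicate 1 and 96.4 in replicate 3. That summit lay in the 99 bp between mRpL47 and CG8176, 73 bp from the first and 26 bp from the second. mRpL4 and mRpL22, related to proteins whose loops line the tunnel, and mRpL24, related to another protein of its exit, had weaker peaks. For mRpL4 the signal was 97.6 (rank 2065), at rank 1785 in replicate 1 and 2920 in replicate 3, and the summit lay 74 bp upstream of the gene and 719 bp from CG4440. mRpL22 had 96.1 (rank 2122), at rank 1688 and 2904, with the summit 1596 bp upstream, in an intron of the integrin gene if and 208 bp from a start of if. mRpL24 had 90.2 (rank 2377), at rank 3231 and 2306, with the summit 168 bp from its own start and 50 bp from betaggt-I, a subunit of a protein prenylation enzyme. Of these 5 genes, mRpL23 and mRpL47 were thus alike in both replicates, while each of the other 3 was outside the 2697 highest peaks of 1 replicate.

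The peaks of mRpL2, mRpL11 and mRpL16 had signals of 86.8 to 90.8. mRpL2, related to the L2 protein beside the peptidyl transferase centre, had a signal of 90.8 (rank 2339), but ranked 5890 in replicate 1 with 30.9 and 2732 in replicate 3 with 44.1. It was the only bound member outside the 2697 highest peaks of both replicates, and its summit lay 735 bp upstream, in an intron of the forkhead gene FoxK and 299 bp from a FoxK start. mRpL11, related to the protein at the base of the stalk where translation factors bind, had 90.4 (rank 2358), at rank 2626 with 44.5 and at rank 2479 with 46.4. The summit was in an untranslated exon of HtrA2, a mitochondrial protease gene, 91 bp from the HtrA2 start and 287 bp from that of mRpL11. mRpL16, related to a protein that contacts transfer RNA, was the bound member of lowest signal, at 86.8 (rank 2548), with 42.5 in replicate 1 and 47.3 in replicate 3. Its summit lay 164 bp from mRpL16 and 142 bp from trr, the gene of a histone H3 lysine methyltransferase.

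The other bound large subunit genes had intermediate signals. mRpL51, known from mitochondria alone, had 128 (rank 1253), at rank 1071 in replicate 1 and 1727 in replicate 3, with its summit in an untranslated exon of Uba4, an enzyme of transfer RNA thiolation, 85 bp from mRpL51 and 54 bp from Uba4. mRpL32 had 120 (rank 1406), at rank 1140 and 1706, with the summit 125 bp upstream of the member and 139 bp from qless, a gene of coenzyme Q synthesis. mRpL55, known from mitochondria alone, had 111 (rank 1636), with 54.7 in replicate 1 and 57.0 in replicate 3. mRpL55 starts 95 bp from ATPsynD, a subunit gene of the ATP synthase. However, its summit lay 1548 bp upstream and was nearest to CG6040, at 508 bp. It was the only optimal summit of a member more than 500 bp from every protein-coding TSS. mRpL21 had 103 (rank 1860), at rank 3321 with 40.1 in replicate 1 and at rank 1137 with 72.7 in replicate 3, with the summit 207 bp from mRpL21 and 72 bp from rept, the gene of the chromatin ATPase Reptin.

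Of the 5 bound small subunit genes, 2 were among the 100 highest optimal peaks. mRpS10, related to bacterial S10 of the head of the subunit (FBgn0038307, chr3R:15229665-15230516, plus strand), had a signal of 952 at rank 12, and ranked 13 in replicate 1 with 413 and 12 in replicate 3 with 539. Its peak at chr3R:15229367-15229701 filled the 257 bp between mRpS10 and Art3, an arginine methyltransferase gene, with the summit 137 bp from mRpS10 and 120 bp from Art3. mRpS23, known from mitochondria alone, had a peak at chr2L:13835297-13835615 with a signal of 843 (rank 15), at rank 17 with 377 in replicate 1 and at rank 16 with 466 in replicate 3. That summit was 375 bp upstream of mRpS23 and 117 bp from CenG1A, a gene of an Arf GTPase-activating protein. The others were weaker and lay nearer to the threshold. mRpS2, related to bacterial S2, had 129 (rank 1237), with 63.8 in replicate 1 and 65.1 in replicate 3, its summit 207 bp from mRpS2 and 15 bp from Mon1, a gene of endosome maturation. mRpS31 had 90.4 (rank 2362), with 45.2 in replicate 1 and 42.8 in replicate 3, the summit 177 bp from its start and 280 bp from hzg. mRpS26 had 89.2 (rank 2427), with 50 in replicate 1 and 42.5 in replicate 3, the summit 389 bp from its start and 41 bp from CG13698. Of these 5 genes, mRpS31 was the only small subunit gene whose own TSS was nearest.

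The sequences between the starts are short, and those of 5 bound members are shown because the summits of these genes lie in them. The peaks themselves reach beyond the stretches shown. They were read from the RefSeq Release 6 genome, which is dm6, and are given on the plus strand, 5′ to 3′; none overlaps an annotated exon. Capitals mark matches to the 10 motifs searched, which are named with their shares further on. For mRpS10 and mRpL32 the whole stretch between the starts is given, for mRpL24 likewise, and for mRpS23 and mRpL16, whose stretches are longer, the 100 bp either side of the summit.
mRpS10 and Art3, chr3R:15229409-15229664, plus strand: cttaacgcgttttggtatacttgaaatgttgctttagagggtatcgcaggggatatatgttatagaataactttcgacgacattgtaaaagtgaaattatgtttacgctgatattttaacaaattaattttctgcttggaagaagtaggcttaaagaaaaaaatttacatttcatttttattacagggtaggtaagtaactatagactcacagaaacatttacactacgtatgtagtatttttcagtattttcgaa
mRpS23 and CenG1A, chr2L:13835347-13835547, plus strand: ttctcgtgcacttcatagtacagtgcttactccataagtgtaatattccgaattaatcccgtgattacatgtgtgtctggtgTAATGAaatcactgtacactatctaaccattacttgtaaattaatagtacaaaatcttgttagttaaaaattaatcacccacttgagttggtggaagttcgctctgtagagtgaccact
mRpL32 and qless, chr3R:31252609-31252871, plus strand: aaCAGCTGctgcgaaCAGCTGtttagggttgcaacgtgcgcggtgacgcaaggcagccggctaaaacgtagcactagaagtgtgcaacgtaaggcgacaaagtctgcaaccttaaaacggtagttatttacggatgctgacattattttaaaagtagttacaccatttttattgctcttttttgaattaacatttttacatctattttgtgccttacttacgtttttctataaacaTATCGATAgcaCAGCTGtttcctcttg
mRpL24 and betaggt-I, chr2L:4945362-4945578, plus strand: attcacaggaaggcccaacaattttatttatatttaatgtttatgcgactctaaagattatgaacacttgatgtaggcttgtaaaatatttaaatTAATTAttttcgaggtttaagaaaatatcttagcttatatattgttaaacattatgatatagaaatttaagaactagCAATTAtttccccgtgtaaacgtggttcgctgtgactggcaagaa
mRpL16 and trr, chrX:1889992-1890192, plus strand: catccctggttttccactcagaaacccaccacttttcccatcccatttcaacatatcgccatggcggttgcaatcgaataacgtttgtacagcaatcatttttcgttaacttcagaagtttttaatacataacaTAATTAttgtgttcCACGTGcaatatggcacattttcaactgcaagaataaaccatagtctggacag
The mRpS10 stretch, under the strongest small subunit peak, held no match to any of the 10 motifs. In the mRpS23 window the homeodomain site TAATGA had its centre 15.5 bp from the summit. The mRpL32 stretch held 3 copies of the E-box CAGCTG and the Dref site TATCGATA beside the mRpL32 start, all of them over 100 bp from the summit. In the mRpL24 stretch the reported Repo site CAATTA lay 7.5 bp from the summit and TAATTA 69.5 bp from it, and the mRpL16 window held TAATTA and the E-box CACGTG 36.5 and 50.5 bp from the summit.

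Most of the 21 peaks were of low rank within the optimal list. Their signals ran from 86.8 to 1024.5 with a median of 111, against a median of 134 over the strongest peaks of all bound genes. At the top, 4 members (19.0% of the bound) were among the first 100 optimal peaks, against 5.34% of all bound genes. At the bottom, 12 (57.1%) ranked below the upper 1348 peaks, against 42.6% of all bound genes. These shares were not tested. Peak width was 396 bp in 17 of the 21, and the narrowest, that of mRpL23, was 304 bp.

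The replicates gave the same order at the top and differed below it. All 21 summits lay inside a peak of each replicate's full list of 30000. Within each replicate's own 2697 highest peaks, 16 were found in replicate 1, 16 in replicate 3 and 12 (57.1%) in both, against 69.5% of all optimal peaks. The 4 members of the first 100 were at ranks 10 to 55 in both replicates. Across the 21 peaks, Spearman's rho between the replicate ranks was 0.701, and across the 17 below the first 100 it was 0.436; these are descriptions over peaks of the same libraries, which are not independent. Replicate 1 placed 9 of the 21 higher, replicate 3 placed 11 higher, and mRpL41 had the same rank in both.

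**Figure D2:**
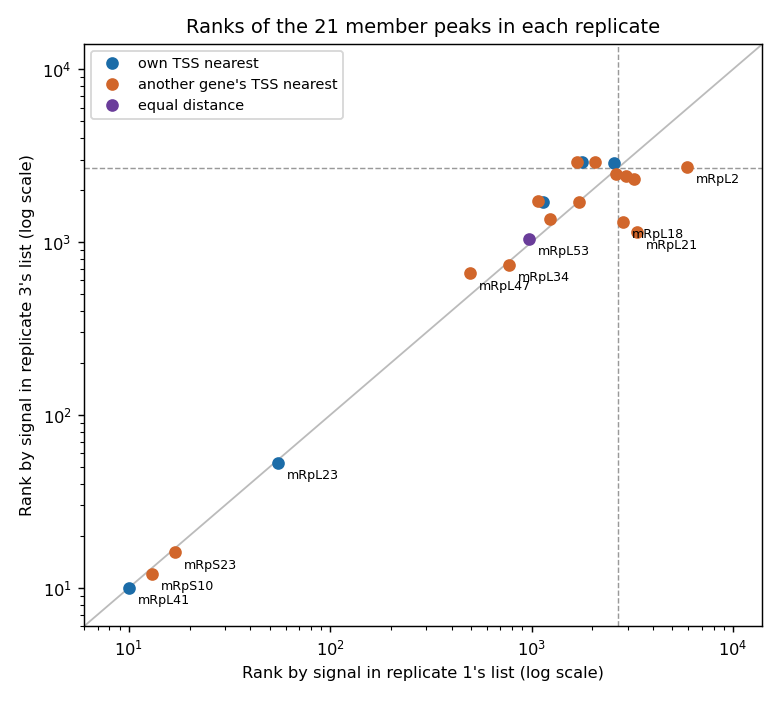
Rank of each bound member's peak in replicate 1's list (x axis) and replicate 3's list (y axis), both on log scales, with rank 1 as the highest signal. The solid line marks equal ranks and the dashed lines rank 2697, the number of optimal peaks; mRpL41 lies on the line, mRpS10, mRpS23 and mRpL23 lie close to it at ranks of up to 55, and mRpL2 alone is beyond both dashed lines.

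The 2697 highest peaks of each replicate's own list gave partly different members. By the same interval, 21 members had a summit among those of replicate 1 and 16 among those of replicate 3. The 12 genes shared by both were 57.1% of the first and 75.0% of the second set, whereas over all protein-coding genes 2143 were shared, 76.5% of the 2800 of replicate 1 and 78.9% of the 2715 of replicate 3. Found with replicate 1 only were mRpL4, mRpL19, mRpL22, mRpL35, mRpL42, mRpS7, mRpS16, mRpS26 and mRpS31. Found with replicate 3 only were mRpL16, mRpL18, mRpL21 and mRpL24. Of the 9 found with replicate 1 only, 5 were outside the optimal list, and there was no such gene with replicate 3.

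The other 52 members had no optimal summit, and 49 of them had a weak peak. No pooled peak at all was found at mRpL10, mRpL40 and mRpS5. The strongest weak peaks had signals of 27.3 to 81.4 with a median of 46.3, at pooled ranks of 2869 to 25866. They lay farther from the members than the optimal peaks did, with a median of 535 bp from the own TSS; 23 were within 500 bp. The own TSS was nearest for 24, another gene's for 24, and mRpL13 was at an equal distance from both. Of these summits 26 (53.1%) lay in coding exons, 11 of them in the member's own, against 0 of the 21 optimal summits. Whether this is particular to the members cannot be told, because the shares over all weak and all optimal peaks are not given here. Of the 12 at pooled ranks up to 5000, 2 were in coding exons, and of the 37 at lower ranks 24 (64.9%) were. In the replicates' full lists, 42 were found in replicate 1, 39 in replicate 3 and 32 in both.

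Of the 6 unbound members with the highest weak peaks, 3 had the summit nearest to their own TSS and 2 in a coding exon of a neighbour. mRpS7, just outside the optimal list, had a signal of 81.4 (rank 2869) and a summit 144 bp upstream of its own TSS, between it and Cdk1, the mitotic kinase gene, at 256 bp. It ranked 2236 in replicate 1 and 4198 in replicate 3, while mRpL16, just inside the list at 86.8, ranked 2926 and 2410. mRpL1 had 73.4 (rank 3478) with the summit 64 bp upstream of its TSS, at rank 2863 and 5997. mRpL19, which has no head-to-head partner, had 71.4 (rank 3660) with the summit 19 bp upstream of its TSS, and ranked 2056 in replicate 1 but 11258 in replicate 3. These 3 summits were nearest to the member, unlike those of the next genes. mRpS6 had 71.8 (rank 3619), 439 bp from its TSS and 9 bp from that of Cip4, a membrane-curving protein, at rank 2978 and 4692. mRpS16 had 72.6 (rank 3547) in a coding exon of the zinc finger gene cg, 876 bp upstream, at rank 1784 in replicate 1 and 25999 in replicate 3. mRpL27 had 69.7 (rank 3830) in a coding exon of CG15435, 1768 bp upstream, at rank 3210 and 7976. All 6 ranked higher in replicate 1 than in replicate 3, and 3 of them were among the 2697 highest peaks of replicate 1.

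**Figure D3:**
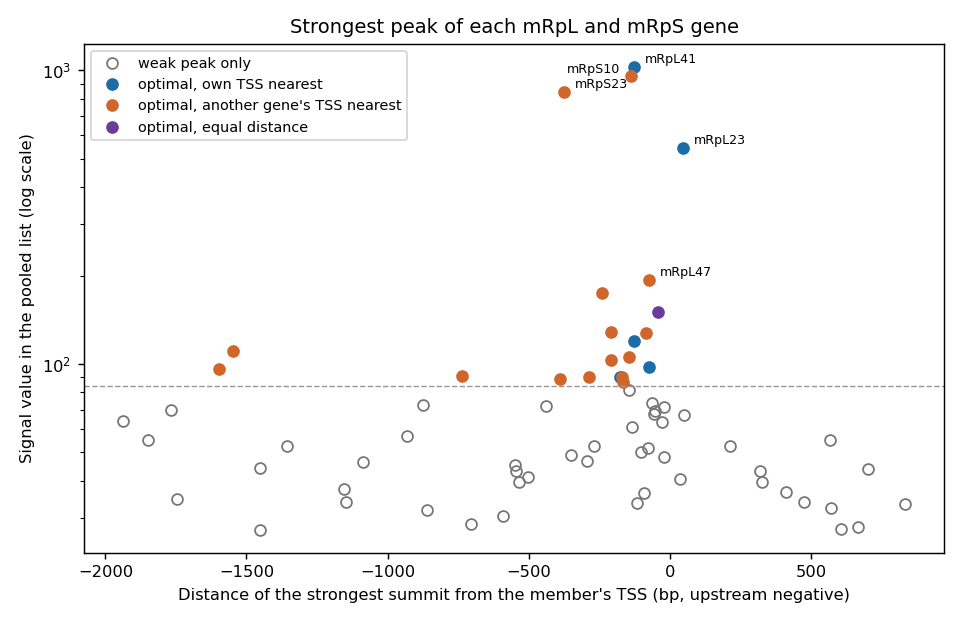
Signal value in the pooled list (log scale) of the strongest peak of each member against the distance of its summit from the nearest annotated TSS of that member, in bp with upstream negative. Filled dots are the 21 optimal peaks, open circles 48 of the 49 weak peaks (that of mRpS9, 6949 bp inside the gene with a signal of 60, is not drawn), and the dashed line is the lowest optimal signal, 84.0; 18 of the filled dots lie within 500 bp of the TSS.

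Other genes of mitochondrial gene expression differed from the members in where their summits lay. This list of 46 genes holds factors of mitochondrial DNA maintenance, transcription, RNA processing and translation, such as polymerases, elongation factors and aminoacyl-tRNA synthetases. Of these, 9 (19.6%) were bound, close to the 19.7% of all genes, and 8 (17.4%) within 500 bp of the TSS. In contrast to the members, the own TSS was the nearest to a summit in 10 (21.7%), and all 8 genes bound within 500 bp were nearest, ties included. The strongest was PNPase, a mitochondrial exoribonuclease, with a signal of 1113.9 at rank 7, 6 in replicate 1 and 9 in replicate 3, and the summit 79 bp downstream of its TSS. SLIRP2, of a family of mitochondrial RNA-binding proteins, had 515 (rank 60), and its relative SLIRP1 109 (rank 1677), at an equal distance from anox. mtSSB, the single-stranded DNA-binding protein of mitochondrial DNA, had 195 (rank 541) and PolrMT, the mitochondrial RNA polymerase, 112 (rank 1592). LeuRS-m, a leucyl-tRNA synthetase, had 193 (rank 557) with the summit 814 bp upstream and nearer to Dhc64C. The remaining bound genes were the arginyl-tRNA synthetase ArgRS-m at 99.7, the termination factor relative mTerf5 at 93.6 and the elongation factor mEFTu1 at 85.6. A pair of mitochondrial ribosomal protein genes with other symbols, tko and bonsai, were outside the rule and had weak peaks of 68.8 (rank 3936) and 31.5 (rank 19847).

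The proteins of the cytoplasmic ribosome gave the largest contrast. Of 92 genes whose symbol begins with RpL or RpS, 56 (60.9%) were bound, 55 (59.8%) within 500 bp of their TSS, and for 50 (54.3%) the own TSS was nearest to a summit. The median signal was 171, against 111 at the members. Both families had many head-to-head genes, 79.5% of the members and 59.8% of the cytoplasmic genes. Cytoplasmic genes without a partner were bound within 500 bp in 18 of 37 cases (48.6%), against 7.95% of all genes without one. The 15 members without a partner had 0, which for so few genes is near that 7.95%. The 88 nuclear genes of the respiratory chain and ATP synthase had 17 bound (19.3%), 13 (14.8%) within 500 bp and 10 (11.4%) with the own TSS nearest, at a median signal of 105. The members thus lay above the respiratory chain genes and below the cytoplasmic ribosomal protein genes in the share bound. By nearest TSS they were below the cytoplasmic genes in each list, but their order with the respiratory chain genes turned: 9.59% against 9.09% without replicate 1 and 13.7% against 10.2% without replicate 3. None of these differences was tested.

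**Figure D4:**
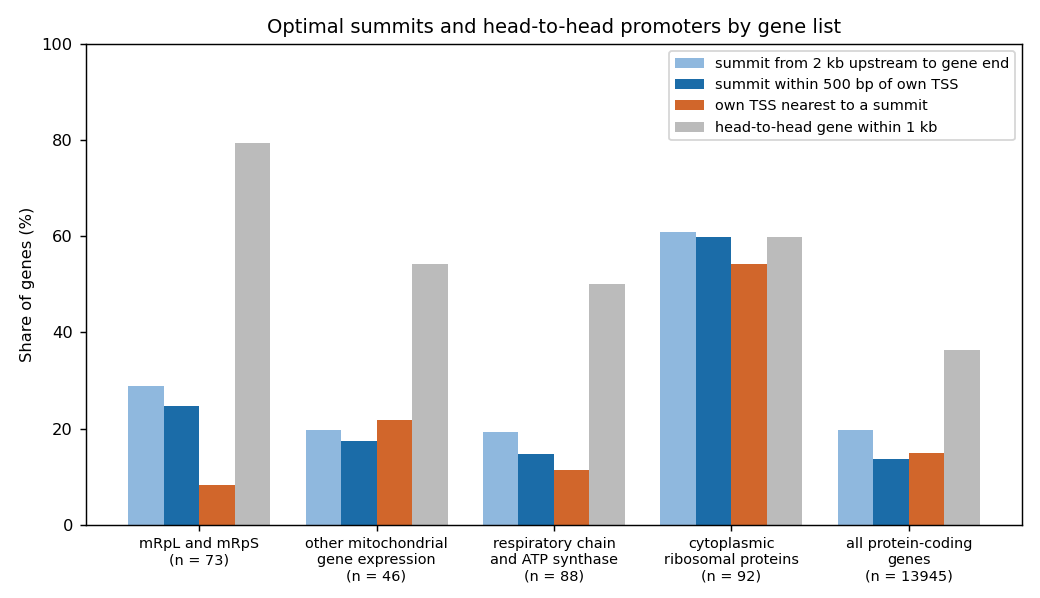
Share of genes in % (y axis, from 0) in each gene list (x axis, with the number of genes) that had an optimal summit from 2 kb upstream to the gene end, an optimal summit within 500 bp of the own TSS, the own TSS nearest to an optimal summit, or a head-to-head gene. The members have the highest head-to-head share, 79.5%, and, in the optimal list, the lowest share by nearest TSS, 8.22%, though without either replicate the respiratory chain genes were lower.

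At the summits, sites of homeodomain factors were found at shares near those of all optimal peaks. Windows reaching 100 bp to each side of the summit were searched on both strands for 10 motifs. CAATTA, the reported Repo site, was in 3 of 21 windows (14.3%), against 17.4% of all 2697. The homeodomain sites TAATTA and TAATGA, which share the core TAAT with the reverse complement of CAATTA, were each in 3 windows (14.3%), against 12.1% and 11.5%. TATCGATA, the site of the promoter factor Dref, was in 1 window, that of mRpL4 (4.76% against 4.93%), and GGTCACAC, the site of the promoter factor M1BP, in 0 (3.11% of all). The E-box CACGTG was in 2 (9.52% against 3.04%), those of mRpL23 and mRpL16. GAGAGAG, the GAGA factor site, TTACGTAA and TTATGTAA were in 0, against 5.30%, 0.334% and 1.37% of all windows. In 8 of the 21 windows no motif was found, against 48.7% of all. The E-box CAGCTG had the widest gap in percentage points, with 7 windows (33.3%) against 10.6%, at 0.500 to 93.5 bp from the summit with a median of 66.5 bp. Base composition was close to that of the other peaks, with a median GC content of 37.3% against 38.8%.

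CAGCTG was a feature of the members' promoters whether or not they were bound. In the stretch from 250 bp before to 50 bp after the gene start, 40 of 73 members (54.8%) held it, against 17.7% of all protein-coding genes and 22.0% of all head-to-head genes. It was in 13 of the 21 bound and 27 of the 52 unbound members. Both subunits held it alike, with 27 of 47 large (57.4%) and 13 of 26 small subunit genes (50%), as did members with bacterial relatives (53.3%) and those known from mitochondria alone (57.1%). Of the other mitochondrial gene expression genes 41.3% held it, of the respiratory chain genes 23.9% and of the cytoplasmic ribosomal protein genes 9.78%. These shares are a description of the sequence and do not come from the immunoprecipitation. Members with the E-box were bound within 500 bp of their TSS in 11 of 40 cases (27.5%) and those without it in 7 of 33 (21.2%), while over all genes these shares were 17.7% and 12.7%. By subunit the shares ran in opposite directions, 10 of 27 with and 3 of 20 without it in the large subunit but 1 of 13 with and 4 of 13 without it in the small; none of these splits was tested. In percentage points, the other motifs stood closer to the background in the members' promoters: TATCGATA was in 20.5% against 9.36%, GGTCACAC in 11% against 7.70%, CAATTA in 35.6% against 25.2%, TAATTA in 20.5% against 20.4% and TAATGA in 15.1% against 17.3%. CACGTG was in 6.85% against 4.20%, GAGAGAG in 1.37% against 5.87%, TTACGTAA in 2.74% against 0.452% and TTATGTAA in 5.48% against 2.15%.

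The E-box sat close to the start of the gene. In 35 of the 40 members (87.5%) a copy lay within 50 bp of the gene start, against 53.7% of the 2463 genes with an E-box promoter among all protein-coding genes, and the median position of the closest copy was 6.50 bp downstream of the start. Most members, 35, had 1 copy and 5 had 2. The runs below show the copy closest to the start, in the direction of the gene, for 9 of the 11 bound members with a copy within 50 bp and then for the 3 unbound ones of highest weak peak with such a copy, because the position and the neighbouring bases can be compared directly. The bound members with a copy within 50 bp that are not shown are mRpL41, at -6.5 bp, and mRpL53, at 18.5 bp, with upstream negative. In the remaining bound members with an E-box promoter, mRpL18 and mRpL51, the closest copy was at -65.5 and -224.5 bp. Capitals mark the E-box, and sequences are from the RefSeq Release 6 genome (dm6).
mRpL23, chr3L:2373717-2373742, minus strand: ggttgacaatCAGCTGtttaaaacaa
mRpL47, chr3R:9515875-9515900, minus strand: gttattgcttCAGCTGttttgttcgg
mRpS2, chr2L:4850415-4850440, minus strand: cactacccacCAGCTGtttaccaaaa
mRpL32, chr3R:31252846-31252871, plus strand: atcgatagcaCAGCTGtttcctcttg
mRpL55, chr3R:19094876-19094901, minus strand: gtcacactatCAGCTGcctggcagca
mRpL21, chr3L:19255069-19255094, minus strand: catgctaacaCAGCTGttcgaaaacg
mRpL2, chr3L:11120847-11120872, plus strand: cgccgcgtaaCAGCTGttttcagccg
mRpL11, chr3R:14511823-14511848, plus strand: gcaataccatCAGCTGttgctgcttc
mRpL24, chr2L:4945326-4945351, minus strand: cagttctcaaCAGCTGattgcaagcc
mRpS6, chr3L:4364554-4364579, plus strand: ttccttgcatCAGCTGttaacactat
mRpL19, chr3R:8674107-8674132, plus strand: tcggtgctgcCAGCTGattatagtgc
mRpL33, chrX:4322209-4322234, minus strand: taggcgcagtCAGCTGttcttcgttc
With upstream negative and in the gene direction, the centre of the copy was at -25.5 bp from the mRpL23 start, at -2.5 bp for mRpL11, at 9.5 bp for mRpL33 and at 22.5 bp for mRpL24. The copy at the mRpL11 start is not the one nearest to the ChIP-seq summit, which lay 287 bp upstream and had another CAGCTG 0.500 bp away, within the HtrA2 gene. For mRpL24 the nearest copy to the summit was 66.5 bp away, on the side of betaggt-I. In both genes, as in mRpS2, the copy nearest to the summit was thus not the copy nearest to the start. In mRpL47, mRpL53 and mRpL18 the same copy was nearest to both.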

How the data were processed

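Peak lists on dm6 were used: 1 per replicate, the pooled list and the optimal list, which the authors made as input for, and after, IDR thresholding, per the labels of the deposited files. Neither the aligner nor the peak caller and its settings, including the IDR cutoff, is given in the sources used here. The deposited signal value per peak is that of the authors' caller, on an unstated scale, and was used to rank and describe peaks within a list. The deposited −log10 of a q-value was at its maximum for 2625 optimal peaks and served no ranking. The deposited summit offset, in bp from the peak start, gave the summit position. The lists on dm3 and the control that the labels name were not analysed here. The lists carry no read counts, so depth is unknown and no interval is given.

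Summits were placed on Ensembl release 115 genes (BDGP6) of the 6 main chromosome arms; a TSS is the start of any annotated transcript of a protein-coding gene. A replicate peak was matched when it held the pooled summit. Sequences came from the RefSeq Release 6 genome, the same assembly as dm6. Python 3.11.15 with numpy 2.4.6, pandas 2.3.3, scipy 1.17.1 and matplotlib 3.10.9 was used, and the counting was checked on small made-up data with known answers. With 1 group of 2 replicates there is no comparison of conditions, and no test over gene lists was run. Members, gene lists, motifs and alternatives were chosen with earlier results of these data known.

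The text names every member with an optimal summit, by its strongest peak, the 6 unbound members with the weak peak of highest rank, members with no peak, the neighbour with the nearest TSS, and every bound gene among the other mitochondrial gene expression genes. Further members are named without values where a count is listed out. The classes of bacterial relatives and of members known from mitochondria alone were assigned from general knowledge of the proteins. Alternatives were replicate lists alone, the upper 1348 optimal peaks, other intervals and distances, and other motif windows.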

Additional observations from a re-analysis of the deposited data

How the results depend on the processing

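Of 56 alternatives to 13 results, 34 stayed within 1.5 times the value in the text, or within the replicate spread, and 22 did not. With the upper 1348 optimal peaks, 9 members were bound (6 large and 3 small subunit genes), against 4 other mitochondrial gene expression and 8 respiratory chain genes. The members' share bound was then 12.3%, against 11.3% of all genes. Within 500 bp of the own TSS there were 9 members, and the share over all genes is not given here. The own TSS was nearest for 3 members (4.11%, against 8.29% of all genes), and the median signal was 193. With summits over 500 bp from every TSS, 1 member (large subunit, 1.37% of members against 5.47% of all genes) and 0 small subunit genes were bound, as were 2 mitochondrial gene expression, 1 cytoplasmic ribosomal protein and 3 respiratory chain genes. Leaving out 1 replicate gave 16 to 21 bound members, 13 to 14 large and 3 to 7 small subunit genes, 15 to 19 within 500 bp and 7 to 10 with the own TSS nearest. The members' share bound was 21.9% against 19.5% of all genes without replicate 1, and 28.8% against 20.1% without replicate 3. The same step gave median signals of 55.2 to 69.8 on the replicates' own scales, 66 to 72 members with any pooled-list summit, 8 to 11 mitochondrial gene expression, 54 to 56 cytoplasmic ribosomal protein and 16 to 17 respiratory chain genes. Without replicate 1, 3 small subunit genes were bound, and without replicate 3, 10 members (13.7%, against 15.0% of all genes) had the own TSS nearest. With 200 bp either side of the summit, the Dref site was in 4 windows and the M1BP site in 1. All 21 peaks lay in both replicates' full lists and 7 in both upper lists of 1348 peaks. The cause of these changes was not tested. No paired analysis was possible because all samples belong to 1 group. Signals near the lowest optimal value of 84.0, as for 6 members from 86.8 to 90.8, depend most on where the authors set the threshold.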
